A study of Mus musculus with 12 samples.

Results

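The genes described here are 10 genes of the intestinal stroma: the secreted signals Bmp4, Grem1, Wnt5a, Wnt2b, Rspo3 and Rspo1, the receptor Pdgfra, the transcription factor Foxl1, and the matrix proteoglycans Dcn and Lum. They were chosen by name, and all 10 were found among the 35688 genes of the deposited values. RNA came from the whole thickness of the colon wall of mice aged 2 weeks. Every mouse lacked Il10, the gene of an anti-inflammatory cytokine, and 1 of the groups also lacked Tnfr1 (Tnfrsf1a, the gene of TNF receptor 1), so the comparison asks what loss of this receptor changes in a colon without interleukin-10. No wild-type colon was analysed, and the labels do not say how either allele was made. Values were available for 5 Il10-/- mice (replicates 1, 2, 3, 5 and 6) and 6 Il10-/- Tnfr1-/- mice (replicates 1 to 6). Each library is a separate sample, but the labels give no litter, sex or batch, so a p-value measures only the spread between these samples.

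Fibroblasts and related mesenchymal cells beneath the intestinal epithelium supply the signals that hold stem cells at the crypt base and let cells mature as they leave it. Wnt ligands, amplified by R-spondins, favour stem cell renewal, while bone morphogenetic proteins (BMPs) favour maturation and are held in check at the crypt base by secreted antagonists such as gremlin 1. PDGFRA and FOXL1 mark subepithelial fibroblasts, also called telocytes, that make Wnt and BMP ligands, and decorin and lumican are proteoglycans of the collagen matrix that many fibroblasts make.

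Promoter sequences are shown for the 3 tested genes found in the RefSeq promoter table (build GRCm38.p6), Bmp4, Grem1 and Pdgfra, because all 3 were highest in the same 2 libraries. Each runs 5′ to 3′ on the gene's strand, from 250 bases before the annotated start to 50 bases after it, and capitals mark matches on either strand to 5 motifs. A GC box was searched as GGGCGG, and a CCAAT box as the letters of its name. The TATA box of many tissue-specific genes was searched as TATAAA. For the GLI factors of Hedgehog signalling the letters were GACCACCCA, and for forkhead factors such as FOXL1 they were GTAAACA. In the sequences printed no match overlapped another.
Bmp4 (chr14:46390620-46390919, minus strand): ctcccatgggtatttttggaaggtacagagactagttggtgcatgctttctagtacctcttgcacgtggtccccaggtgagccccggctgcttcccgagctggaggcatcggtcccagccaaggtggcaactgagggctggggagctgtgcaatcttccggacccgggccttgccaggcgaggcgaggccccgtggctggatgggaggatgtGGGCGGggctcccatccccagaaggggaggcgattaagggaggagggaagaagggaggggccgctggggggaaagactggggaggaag
Grem1 (chr2:113758599-113758898, minus strand): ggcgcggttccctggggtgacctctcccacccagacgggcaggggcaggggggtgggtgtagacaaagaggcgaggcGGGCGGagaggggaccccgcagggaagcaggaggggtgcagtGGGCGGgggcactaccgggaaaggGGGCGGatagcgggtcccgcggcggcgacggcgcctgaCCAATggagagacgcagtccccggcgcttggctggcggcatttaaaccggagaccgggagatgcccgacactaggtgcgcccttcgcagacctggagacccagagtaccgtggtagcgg
Pdgfra (chr5:75152001-75152300, plus strand): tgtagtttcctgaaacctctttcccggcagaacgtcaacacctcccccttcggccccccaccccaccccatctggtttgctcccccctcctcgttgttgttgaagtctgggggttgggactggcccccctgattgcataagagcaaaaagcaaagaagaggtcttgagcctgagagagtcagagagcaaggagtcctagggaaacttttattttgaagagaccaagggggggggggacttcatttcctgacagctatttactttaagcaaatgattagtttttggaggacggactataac
The Grem1 window held 3 GC boxes and 1 CCAAT box, the Bmp4 window held 1 GC box, and the Pdgfra window held none of the 5 motifs. Among 32851 RefSeq promoter windows of this length, 35.7% held a GC box, 37.4% a CCAAT box, 13.6% a TATA box, 3.65% the forkhead core and 0.253% the GLI core. GC content was 70.7% for Grem1, 64.0% for Bmp4 and 51.0% for Pdgfra, against a median of 52.7% over all windows. The 3 windows thus shared no motif of those searched. Of the genes not tested, the promoter table also held Wnt2b and Rspo1, whose sequences are not printed. Wnt2b, highest in the same libraries, had 4 GC boxes and 1 CCAAT box, and Rspo1 had none of the 5 motifs. A match is a run of letters and does not show that a factor binds.

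Abundances are the authors' scaled values per transcript, summed by gene, and are not counts, so sequencing depth is unknown. Library sums ran from 804108 to 1378971, and between 41.7% and 55.1% of transcripts were at 0. Tnfrsf1a had a mean of 47.9 ± 18.5 (SD) over the 5 Il10-/- mice and of 14.8 ± 2.35 (SD) over the 6 Il10-/- Tnfr1-/- mice, with an adjusted p of 0.125 by limma. Its genotypes did not overlap, as for 0.575% of tested genes. Il10, which both groups lack by their labels, was listed in all 11 libraries, at 15.3 ± 6.44 (SD, range 9.06 to 22.9) in Il10-/- and 5.14 ± 1.56 (SD, range 3.27 to 7.23) in Il10-/- Tnfr1-/-. Its genotypes did not overlap either, and its adjusted p was 0.536 by limma. The labels do not name the exons that either allele lacks. Il10-/- Tnfr1-/- replicates 3 and 4 stood apart for stromal and muscle genes, and Il10-/- replicate 6 stood apart at the low end. Sample titles are numbers whose first digit has no stated meaning: it is 2 for Il10-/- Tnfr1-/- replicates 3 and 4 alone, 3 for replicates 5 and 6 of that genotype, 4 for Il10-/- replicates 5 and 6, and 1 for the other 5 mice. The digit and the genotype can be told apart only among titles that start with 1. These are Il10-/- replicates 1, 2 and 3 and Il10-/- Tnfr1-/- replicates 1 and 2, too few mice to show that a difference is lost or reversed.

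None of the 6 tested genes differed between the genotypes at an adjusted p under 0.05 by limma, and neither did any other gene in this fit. The other 4, Foxl1, Rspo1, Rspo3 and Wnt2b, were too low to be tested in it. In a limma fit without the filter on low values their adjusted p was 0.702 or more. The strongest pattern was between mice within a genotype: Il10-/- Tnfr1-/- replicates 3 and 4 were the highest libraries for 9 of the 10 genes, and Il10-/- replicate 6 was the lowest for 9 of the 10. Rspo1 was the exception to both. Of all 13561 tested genes, 13.7% had replicates 3 and 4 as the highest libraries, and 23.6% were lowest in Il10-/- replicate 6. The values of the genotypes overlapped for all 10 genes. In RNA from whole tissue, fewer cells of a type and less RNA per cell cannot be told apart.

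**Figure D1:**
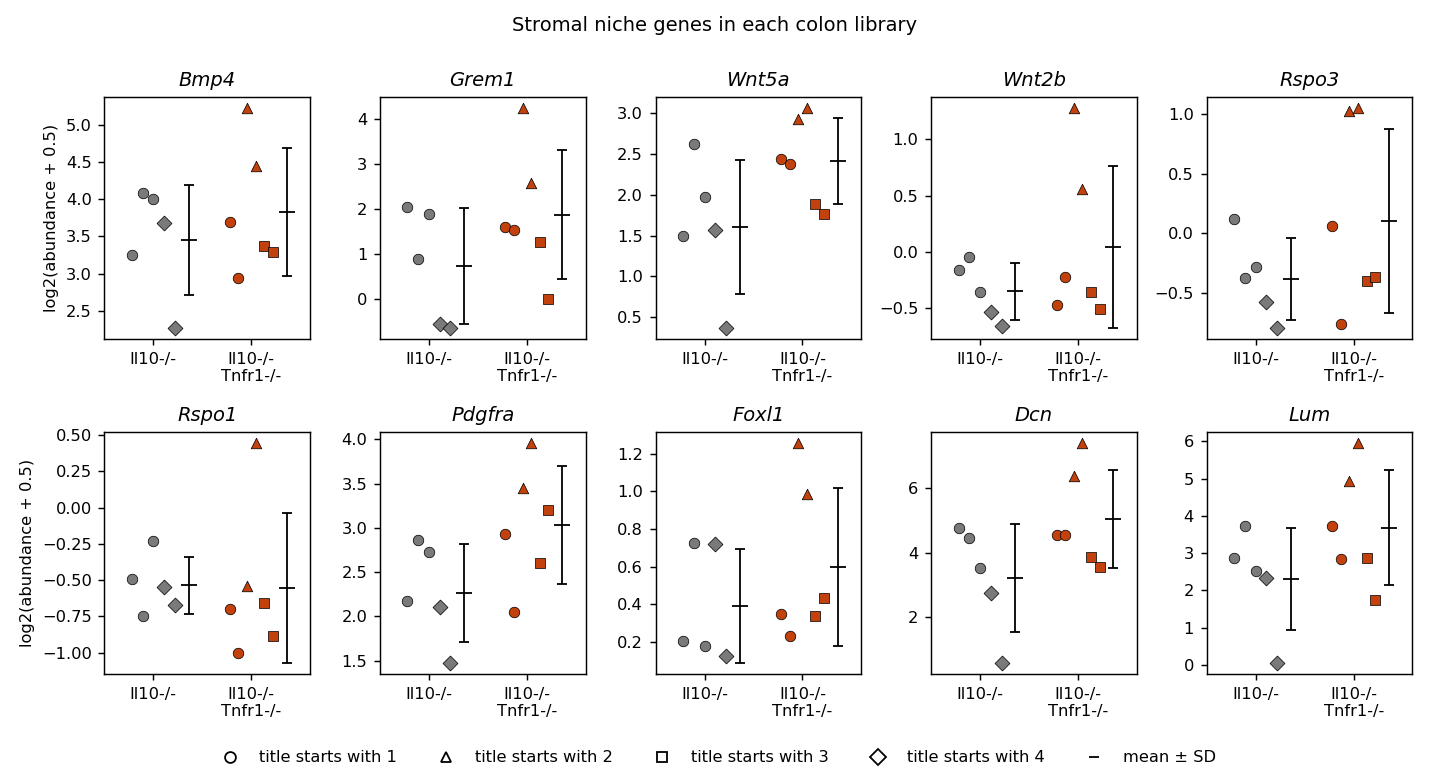
Each panel plots log2(abundance + 0.5) of 1 gene in the 5 Il10-/- and 6 Il10-/- Tnfr1-/- colon libraries, with marker shape giving the first digit of the sample title and bars the mean ± SD. The triangles, Il10-/- Tnfr1-/- replicates 3 and 4, are the highest points for 9 of 10 genes, and the rest of that genotype lies within or near the range of Il10-/-.

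Bmp4 encodes a ligand that restrains proliferation outside the crypt base (ENSMUSG00000021835, chr14:46383520-46390669, mm10). Its abundance in Il10-/- replicates 1, 2, 3, 5 and 6 was 9.0, 16.4, 15.5, 12.3 and 4.34, and in Il10-/- Tnfr1-/- colons it ran from 7.18 through a median of 11.1 to 36.9. The median was lower in Il10-/- Tnfr1-/- than in Il10-/- (12.3), while the mean was higher (16.2 against 11.5), because replicates 3 and 4 reached 36.9 and 21.2 and no other library of either genotype exceeded 16.4. The log2 fold change, Il10-/- Tnfr1-/- minus Il10-/- on the log2(abundance + 0.5) scale, was 0.37 ± 0.43 (SE), with an adjusted p of 0.698 by limma. Without replicates 3 and 4 it was -0.13 (95% interval -0.91 to 0.65).

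Grem1 encodes gremlin 1, which binds BMPs and keeps them from their receptors (ENSMUSG00000074934, chr2:113746164-113758646). It stood at 3.61, 1.36, 3.21, 0.180 and 0.137 in Il10-/- replicates 1, 2, 3, 5 and 6, and ran from 0.493 through a median of 2.47 to 18.6 in Il10-/- Tnfr1-/-. Replicate 3 alone held 18.6, ahead of 5.48 in replicate 4, while both Il10-/- mice with titles starting with 4 lay below every other library. The log2 fold change was 1.15 ± 0.73 (SE; adjusted p 0.541 by limma), and it was -0.04 among the mice whose titles start with 1. The log2 ratio of antagonist to ligand, Grem1 to Bmp4, taken after adding 0.5 to both abundances, ran over -4.23 to -1.21 in Il10-/- and -3.31 to -0.97 in Il10-/- Tnfr1-/-. Its difference of 0.77 gave an exact two-sided permutation p of 0.203. The added 0.5 pulls this ratio toward 0 where Grem1 is low, and with 0.1 added the difference was 1.18 (exact permutation p = 0.182).

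Wnt5a, a ligand that mostly acts apart from β-catenin and is made by subepithelial fibroblasts (ENSMUSG00000021994, chr14:28504750-28527448), read 2.32, 5.66, 3.42, 2.47 and 0.789 in Il10-/- replicates 1, 2, 3, 5 and 6. In Il10-/- Tnfr1-/- it ran from 2.91 through a median of 4.80 to 7.88. Here the 4 remaining Il10-/- Tnfr1-/- mice also averaged above Il10-/-, at 3.93 against 2.93 ± 1.79 (SD, n = 5), although Il10-/- replicate 2 exceeded all 4. On the log2 scale the difference was 0.81 ± 0.38 (SE), with an unadjusted p of 0.0535 and an adjusted p of 0.536 by limma. Wnt5a was the tested gene least concentrated in replicates 3 and 4, which held 48.9% of the summed abundance of the 6 libraries.

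Wnt2b, a stromal ligand that signals through β-catenin (ENSMUSG00000027840, chr3:104945272-104961921), was low. It stood at 0.394, 0.468, 0.279, 0.189 and 0.135 in Il10-/- replicates 1, 2, 3, 5 and 6, and ran from 0.203 through 0.318 to 1.93 in Il10-/- Tnfr1-/-. Apart from replicates 3 (1.93) and 4 (0.971), every Il10-/- Tnfr1-/- library lay inside the Il10-/- range. It did not pass the filter of a value over 1 in at least 5 libraries, so it has no result in the filtered fit, and without the filter its log2 fold change was 0.40 ± 0.32 (SE; adjusted p 0.706 by limma). With 0.5 added to both, the Wnt5a to Wnt2b ratio differed by 0.41 on the log2 scale (exact permutation p = 0.240).

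The R-spondins, which amplify Wnt signals through LGR receptors, were low in every library. Rspo3 (ENSMUSG00000019880, chr10:29452416-29535867), the member of the family that has been placed in stromal cells near crypts, read 0.590, 0.274, 0.321, 0.173 and 0.0777 in Il10-/- replicates 1, 2, 3, 5 and 6. In Il10-/- Tnfr1-/- it ran from 0.0920 through 0.412 to 1.58, with 1.54 and 1.58 in replicates 3 and 4 and at most 0.546 elsewhere, below the highest Il10-/- value. Rspo1 (ENSMUSG00000028871, chr4:124986430-125009099) read 0.212, 0.0966, 0.353, 0.184 and 0.129 in the same Il10-/- order, and 0 through 0.125 to 0.861 in Il10-/- Tnfr1-/-. Only replicate 4 was high for Rspo1; replicate 3 (0.187) lay within the Il10-/- range, and replicate 2 was listed at 0. Both failed the filter, and without it their log2 fold changes were 0.48 ± 0.35 and -0.02 ± 0.23 (SE), with adjusted p of 0.702 and 0.980 by limma. With 0.5 added to both, the log2 ratio of Rspo3 to Rspo1 differed by 0.50 between the genotypes (exact permutation p = 0.0671). Nearly all values of both genes lie near or below 0.5, so the size of this difference is largely set by the added constant: it was 1.00 with 0.1 added and 0.34 with 1 added. Over the 4 ratios compared the smallest Benjamini-Hochberg adjusted p was 0.240.

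Pdgfra encodes the receptor for PDGF ligands by which many fibroblasts are sorted (ENSMUSG00000029231, chr5:75152292-75198215). It stood at 4.01, 6.76, 6.11, 3.81 and 2.27 in Il10-/- replicates 1, 2, 3, 5 and 6, and ran from 3.63 through 7.92 to 15.0 in Il10-/- Tnfr1-/-. Replicate 6 of Il10-/- Tnfr1-/-, at 8.71, also exceeded every Il10-/- library, as did replicate 1 at 7.13, while replicate 2 was among the low ones. The log2 fold change was 0.76 ± 0.34 (SE; 95% interval 0.02 to 1.51), with an unadjusted p of 0.0458 and an adjusted p of 0.536 by limma. It was -0.10 among the mice whose titles start with 1 (95% interval -1.07 to 0.88).

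Foxl1, a forkhead factor of subepithelial fibroblasts (ENSMUSG00000097084, chr8:121127940-121130644), had the smallest SD on the log2 scale, 0.37 over the 11 libraries. It read 0.653, 1.16, 0.634, 1.15 and 0.592 in Il10-/- replicates 1, 2, 3, 5 and 6, and 0.674 through 0.812 to 1.89 in Il10-/- Tnfr1-/-. Its highest library was only 3.19-fold above its lowest. Replicates 3 and 4 were again on top, and the other 4 Il10-/- Tnfr1-/- libraries lay between 0.674 and 0.851, inside the Il10-/- range. It failed the filter, with a value over 1 in 4 libraries, and its unfiltered log2 fold change was 0.21 ± 0.24 (SE; adjusted p 0.743 by limma).

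Dcn encodes decorin, which binds collagen fibrils (ENSMUSG00000019929, chr10:97479609-97518143), and showed the widest range of the 10 genes. It stood at 26.7, 21.2, 11.1, 6.17 and 0.980 in Il10-/- replicates 1, 2, 3, 5 and 6, and ran from 11.2 through 22.9 to 168 in Il10-/- Tnfr1-/-. Replicate 4 (168) was 171-fold above Il10-/- replicate 6 and replicate 3 (81.7) was second, whereas the other 4 Il10-/- Tnfr1-/- libraries, at 11.2 to 22.9, lay within the Il10-/- range. The log2 fold change was 1.83 ± 0.83 (SE; 95% interval 0.03 to 3.64), with an unadjusted p of 0.0469 and an adjusted p of 0.536 by limma. Without replicates 3 and 4 it was 0.92 (-0.72 to 2.55).

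Lum encodes lumican, a close relative of decorin that also binds collagen (ENSMUSG00000036446, chr10:97565128-97572703), and starts 46984 bases past the end of Dcn on chromosome 10. It read 6.87, 12.7, 5.25, 4.5 and 0.526 in Il10-/- replicates 1, 2, 3, 5 and 6, and 2.87 through 9.78 to 61.6 in Il10-/- Tnfr1-/-. As for Dcn, replicates 4 (61.6) and 3 (30.3) were the highest, and the other libraries overlapped. The log2 fold change was 1.38 ± 0.77 (SE; adjusted p 0.536 by limma). Across the 11 libraries Dcn and Lum followed each other most closely of the 15 pairs of tested genes (Pearson r = 0.960, and 0.907 over the 9 libraries other than replicates 3 and 4), and Pdgfra and Grem1 least closely (r = 0.604, and 0.314 over the 9). With 0.5 added to both, the Dcn to Lum ratio differed by 0.45 on the log2 scale (exact permutation p = 0.160).

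Read together, 6 of the 10 genes passed the filter and 0 of these 6 were called at an adjusted p under 0.05 by limma, against a background of 0% of the 13561 genes tested. At an unadjusted p under 0.05, 2 of the 6 (Dcn and Pdgfra) were higher in Il10-/- Tnfr1-/- and none lower, against 4.74% of tested genes higher and 8.34% in either direction. All 6 log2 fold changes were above 0, as were 55.5% of all genes, and their median was 0.98 against 0.05 over all genes tested. Leaving out Il10-/- Tnfr1-/- replicates 3 and 4, a choice made after seeing the data, left 5 of 6 above 0 and 0 of 6 at an unadjusted p under 0.05. Leaving out the low Il10-/- replicates 5 and 6 instead, also chosen after seeing the data, left 6 of 6 above 0 and 0 of 6 at an unadjusted p under 0.05, with log2 fold changes of 0.80 for Dcn, 0.64 for Lum, 0.45 for Pdgfra, 0.38 for Wnt5a, 0.26 for Grem1 and 0.05 for Bmp4. For Dcn, Grem1 and Wnt5a these were below the 0.92, 0.37 and 0.51 without replicates 3 and 4. For Lum, Pdgfra and Bmp4 they were above the 0.50, 0.43 and -0.13 without replicates 3 and 4. Among mice whose titles start with 1, 3 of 6 were above 0, and the median was 0.10.

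**Figure D2:**
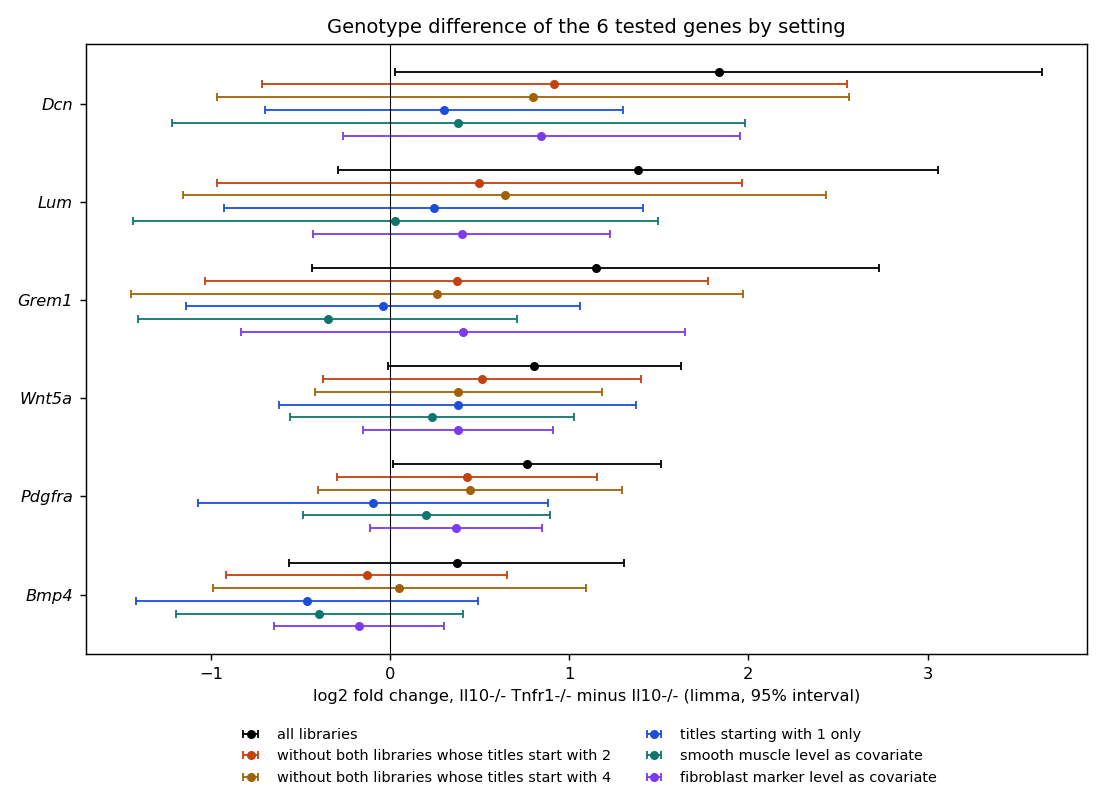
Points give the limma log2 fold change of each tested gene, Il10-/- Tnfr1-/- minus Il10-/-, and bars its 95% interval, under all libraries and 5 other settings named in the key. Estimates over all libraries run from 0.37 (Bmp4) to 1.83 (Dcn), and every interval of the other 5 settings spans 0.

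The spread between mice was wide for these genes compared with most of the transcriptome. The SD of log2(abundance + 0.5) over the 11 libraries was 1.78 for Dcn, 1.57 for Lum and 1.43 for Grem1, and 0.79, 0.77 and 0.71 for Bmp4, Wnt5a and Pdgfra, against a median of 0.43 over all tested genes. Dcn exceeded 99.0% of tested genes in this SD and Pdgfra 81.4%. The matrix genes and Grem1 thus varied more than the fibroblast receptor and the ligands, and smooth muscle markers, with a median SD of 1.70, varied about as much as Dcn.

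**Figure D3:**
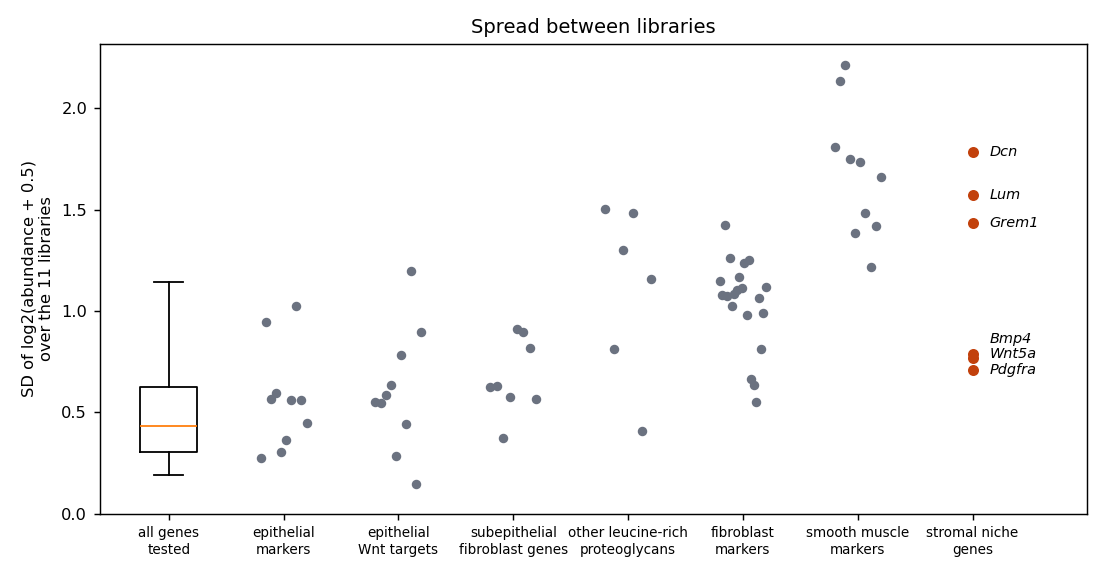
The SD of log2(abundance + 0.5) over the 11 libraries is plotted for each tested gene of 7 lists, beside a box of all 13561 tested genes (line at the median, box from the 25th to the 75th percentile, whiskers to the 5th and 95th). Dcn, Lum and Grem1 lie at 1.43 to 1.78, within the range of smooth muscle markers and far above the overall median of 0.43.

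Markers of other cells moved with the same libraries. The summed abundance of 20 other fibroblast and matrix markers, such as Col1a1 and Col3a1, was 191 to 1060 in Il10-/- and 451 to 2679 in Il10-/- Tnfr1-/-, with 1883 and 2679 in replicates 3 and 4. All 20 had log2 fold changes above 0 (median 0.72, but -0.34 with the smooth muscle level as a covariate and -0.24 among titles starting with 1), with 0 at an unadjusted p under 0.05. The sum of 10 smooth muscle markers such as Actg2 ran from 184 to 3505 in Il10-/- and 828 to 8010 in Il10-/- Tnfr1-/-, with 8010 and 7144 in replicates 3 and 4 and 184 and 201 in Il10-/- replicates 5 and 6. All 10 had log2 fold changes above 0 (median 1.77, and 0.07 among titles starting with 1), and 9 of 10 were higher at an unadjusted p under 0.05, with 0 called by limma. The 10 epithelial markers ran the other way, at 5681 and 6047 in replicates 3 and 4, the lowest of all libraries, against 7153 to 14255 in Il10-/- and a highest value of 18516 in Il10-/- Tnfr1-/- replicate 6. None of the fibroblast, smooth muscle or epithelial markers was at 0 in every library. The endothelial sum was also highest in replicates 3 and 4, at 73.1 and 65.9, against at most 44.6 in Il10-/-. Replicates 3 and 4 further had the smallest library sums (804108 and 848706) and the fewest transcripts at 0 (42.1% and 41.7%), and Il10-/- replicate 6 the largest sum and the most transcripts at 0 (55.1%). The part of tissue makeup, of these library features and of whatever the title digit stands for in the stromal values was not tested.

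**Figure D4:**
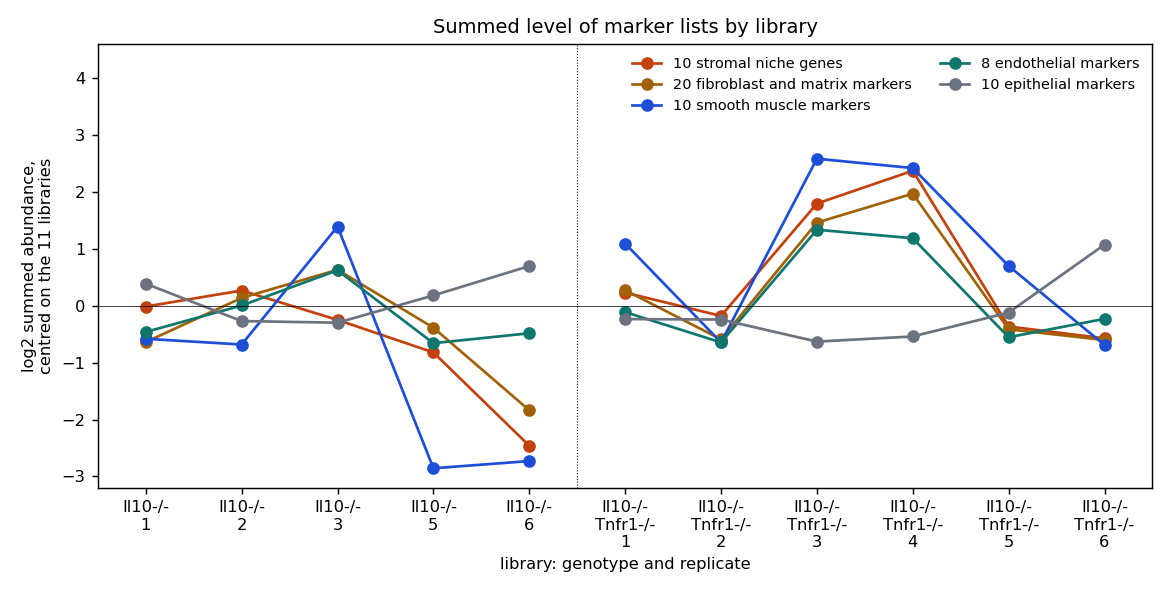
Lines give the log2 summed abundance of 5 gene lists in each library, centred on the mean of the 11 libraries, with a dotted line between the genotypes. The stromal niche genes, fibroblast, smooth muscle and endothelial markers are all highest in Il10-/- Tnfr1-/- replicates 3 and 4, where the epithelial markers are lowest.

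Shares of the fibroblast marker sum spread less than the abundances themselves for some genes. Bmp4 amounted to 2.06% ± 0.350 of the fibroblast marker sum in Il10-/- against 1.64% ± 0.470 in the other genotype (SD over 5 and 6 mice), and Pdgfra to 0.860% ± 0.229 and 0.966% ± 0.514. Dcn took a larger share in the second genotype, 3.94% ± 1.53 against 2.33% ± 2.27, and ran from 0.512% in Il10-/- replicate 6 to 6.27% in Il10-/- Tnfr1-/- replicate 4, although Il10-/- replicate 1 stood at 6.07%. In replicates 3 and 4 the shares of Pdgfra (0.552% and 0.561%) were the lowest of all libraries, whereas Grem1 in replicate 3 (0.989%) was the highest. With the fibroblast marker level as a covariate, a setting added after seeing the data, the log2 fold changes were 0.84 for Dcn, 0.41 for Grem1, 0.40 for Lum, 0.38 for Wnt5a, 0.37 for Pdgfra and -0.17 for Bmp4, all with adjusted p of 0.857 or more by limma. With the smooth muscle level as a covariate, Dcn was 0.38, Wnt5a 0.23, Pdgfra 0.20, Lum 0.03, Grem1 -0.35 and Bmp4 -0.39.

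The rest of the Wnt and BMP pathways gave no gene at an adjusted p under 0.05 in either direction. Of 17 further Wnt ligands only Wnt4, Wnt5b and Wnt11 passed the filter, with a median log2 fold change of 0.16. Several list medians turned with the smooth muscle level as a covariate or among mice whose titles start with 1: here they were -0.35 and -0.30. Of the 7 other R-spondin pathway genes 4 passed, with Lgr5, the stem cell receptor for R-spondins, at 0.52 and a list median of 0.13 (-0.07 and -0.11 under those 2 settings). All 11 tested Wnt receptors and co-receptors were above 0 (median 0.38), and 2 of them, Fzd7 (0.77 ± 0.31 SE) and Ryk (0.38 ± 0.15 SE), had an unadjusted p under 0.05 with an adjusted p of 0.536 by limma. All 5 tested secreted Wnt antagonists were above 0 (median 0.68, but -0.43 and -0.25 under those settings), led by Frzb at 1.01. Among 10 tested epithelial Wnt targets 9 were above 0 (median 0.51). Nkd1, a feedback inhibitor of Wnt signalling, averaged 2.80 ± 2.08 (SD) in Il10-/- against 8.09 ± 6.09 (SD) with both genes lost, and its groups overlapped. Its highest libraries were Il10-/- Tnfr1-/- replicates 4 (17.9) and 3 (12.9), where the epithelial markers were lowest. RNA from the whole wall does not place these targets in the epithelium.

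On the BMP side, the 6 tested ligands other than Bmp4 were all above 0, with a median log2 fold change of 0.39 that was close to the 0.37 of Bmp4. The receptor Bmpr1a averaged 9.30 ± 4.07 (SD) in Il10-/- against 16.4 ± 4.89 (SD) in the other genotype, a log2 fold change of 0.85 ± 0.30 (SE), and 4 of 5 tested receptors were above 0. Of 7 tested antagonists other than Grem1, 6 were above 0: Fst, the activin and BMP antagonist follistatin, was at 1.40 ± 0.50 (SE), and chordin (Chrd) was the exception at -0.67 ± 0.32 (SE). Their median of 0.57 was -0.24 with the smooth muscle covariate and -0.36 among titles starting with 1. The BMP target genes Id1, Id2, Id3, Id4, Smad6 and Smad7 had a median of 0.09, next to the all-gene median of 0.05, with Id4 at 0.81 and Id1 at -0.66.

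Lists of PDGF, Hedgehog, fibroblast subset and proteoglycan genes had median log2 fold changes of 0.23 to 0.78, in RNA that does not show which cells hold them. Of the tested PDGF pathway genes 4 of 5 were above 0 (median 0.26), with the ligand Pdgfc at 0.40, and so were 4 of 5 Hedgehog pathway genes (median 0.23), with the receptor Ptch1 at 0.34 and the target Gli1 at -0.20. Of 8 telocyte genes outside the 10 described, 6 were above 0, with a median of 0.29, led by the forkhead factors Foxf2 (0.70) and Foxf1 (0.68). This list shares Bmp5 and Bmp7 with the BMP ligands and Gli1 with the Hedgehog genes. The 5 tested genes of submucosal CD81+ and Pi16+ fibroblasts, which are known to make Grem1 and R-spondins, had a median of 0.42. The 6 tested small leucine-rich proteoglycans other than Dcn and Lum were all above 0 (median 0.78), with Optc at 1.52 and Prelp at 1.12. With the smooth muscle covariate the medians were -0.28 for PDGF, -0.47 for Hedgehog, -0.26 for telocyte, -0.25 for submucosal fibroblast and -0.30 for proteoglycan genes. Among titles starting with 1 the PDGF, Hedgehog and telocyte medians were -0.16, -0.39 and -0.25. The submucosal fibroblast and proteoglycan medians were 0.008 and 0.11 in those mice. For 5 of these 6 proteoglycans, replicates 3 and 4 were the highest libraries.

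**Figure D5:**
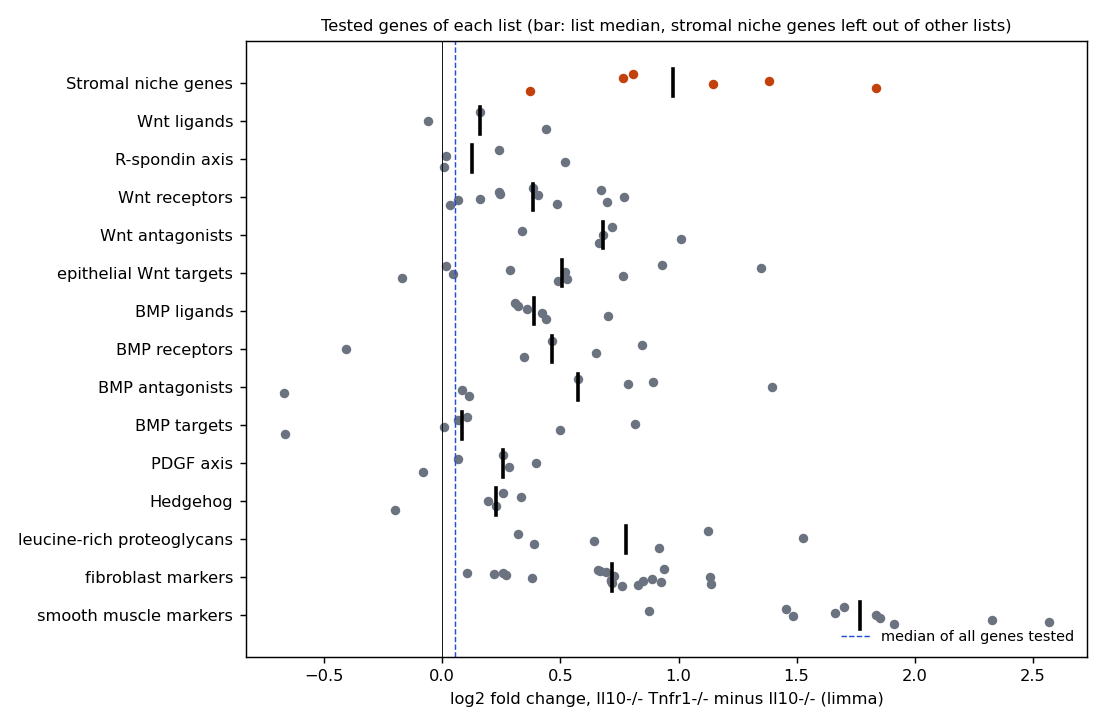
Each point is the limma log2 fold change, Il10-/- Tnfr1-/- minus Il10-/-, of 1 tested gene, bars mark list medians, and the dashed line marks the median of all genes tested (0.05). The stromal niche genes have a median of 0.98, between the fibroblast markers (0.72) and the smooth muscle markers (1.77), and BMP targets lie around the overall median.

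The genes whose profile was most like the mean of the 6 tested members over the 11 libraries were Twsg1 (Pearson r = 0.990), Cdh11 (0.989), Mdfic (0.987), Clic4 (0.984) and Vezf1 (0.984). Twsg1 encodes a secreted BMP-binding protein and Cdh11 a cadherin of mesenchymal cells. Over the 9 libraries other than replicates 3 and 4 the values were 0.963 to 0.981. These libraries share their scaling and tissue makeup, so the likeness is a description only. Twsg1 had a log2 fold change of 0.57 ± 0.32 (SE) and Cdh11 of 1.04 ± 0.65 (SE), with adjusted p of 0.536 and 0.537 by limma.

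The 10 genes were listed as 33 transcripts, of which 9 passed the filter and 0 were called (background 0% of 27895 transcripts, and 6.27% at an unadjusted p under 0.05). Foxl1, Grem1 and Lum were each carried by 1 transcript. Wnt5a was split between a pair of coding transcripts whose starts lie 6655 bases apart. The shorter made up 35.4% ± 22.4 of the gene in Il10-/- against 51.3% ± 5.0 in the other genotype (SD over 5 and 6 mice), with overlap. The Il10-/- share includes replicate 6, where this transcript was listed at 0 and the whole gene stood at only 0.789. Bmp4 was split between coding transcripts with starts only 119 bases apart, at 54.3% and 39.6% of the gene. A retained-intron transcript of Bmp4 was listed above 0 in Il10-/- Tnfr1-/- replicate 3 alone, at 5.15. In the authors' deposited table the lowest q-value of any of these transcripts was 0.684, with the authors' log2 fold changes at 2.24 for the main Dcn transcript, 1.83 for Grem1, 1.63 for Lum and 0.86 for the main Pdgfra transcript. The headers do not say which genotype was divided by which, or which libraries entered the authors' comparison.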

How the data were processed

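Stranded mRNA from 12 colons was sequenced as single-end reads, per the labels' protocols. Tools given without version in the submitters' processing notes are kallisto, sleuth and CASAVA, and the build is mm10. The deposited per-library values are a never-negative signal (abundance per transcript) scaled by the authors; the headers do not name the scaling. Beside them the authors deposited, per the file headers, a mean in natural log units and their own log2 fold change, fold ratio, q-value and p-value; only q-values and log2 fold changes are quoted. Columns were matched to samples by title: 11 of 12 samples matched, 1 Il10-/- sample (replicate 4) matched none, and 1 per-sample column matched no title and was not used.

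After dropping 866 repeated rows (0 of the genes described), 113193 transcripts were summed to 35688 genes with pandas 2.3.3. limma 3.58.1 (R 4.3.3, trend and robust) was fitted to log2(value + 0.5) for the 13561 genes over 1 in at least 5 libraries, two-sided, with Benjamini-Hochberg adjustment over all of them. Fold changes on this scale understate the change of low genes. The fit was tested on simulated data. Ratios of gene pairs were compared by exact two-sided permutation over 462 assignments, whose smallest p is 0.00216. Gene coordinates are from GENCODE M21 on mm10 and promoters from RefSeq (GRCm38.p6), which held 5 of the 10 genes. All 33 transcripts matched GENCODE. Lists exclude the 10 genes. Besides them, the rule for named genes took Il10, Tnfrsf1a, the 2 genes per list with the smallest p, and the 5 genes most correlated with the members' mean. Other list genes were chosen as examples after their values were seen. The members and lists were chosen with earlier results of these data known. Alternatives covered scaling, pseudocount, filter, covariates and left-out libraries.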

Additional observations from a re-analysis of the deposited data

Results flagged for a closer look

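Among 28 groups of samples checked for a value far from the rest, 1 was picked out, where chance picks about 1 in 20. It was Rspo1 in Il10-/- Tnfr1-/- replicate 4, with a log2(abundance + 0.5) of 0.44. Its gap to the next library took 0.682 of the range of its genotype, above the critical 0.625 for 6 samples. Rspo1 had no library over 1, so the gap lies among low values. The same library was the highest of all for Dcn, Lum, Pdgfra, Wnt5a and Rspo3.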

How the results depend on the processing

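Of 1584 values recomputed under alternatives, 1364 kept their direction and side of the threshold or moved little, 210 moved and 10 reversed. Equal library totals shifted the median of all genes from 0.05 to 0.19 on the log2 scale; all 6 tested members stayed above 0 under the 3 scalings. With the title digit as a covariate, and equally in the mice whose titles start with 1, Pdgfra was -0.10, Grem1 -0.040 and Bmp4 -0.46. Every other digit holds a single genotype, so these settings must give the same fold change. Their changes are counted under both settings and are not separate results. With the smooth muscle level as a covariate, Grem1 was -0.35 and Bmp4 -0.39, while 4 of the 6 stayed above 0. Bmp4 was -0.13 without replicates 3 and 4 of Il10-/- Tnfr1-/- and -0.17 with the fibroblast level as a covariate. The members' median of 0.98 became 0.12 with the muscle covariate and 0.10 with the digit or in titles starting with 1. The cause was not tested.

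The count of genes called was 1 under quantile normalization, none of them a member, and 0 to 2 when each library was left out in turn (2 without Il10-/- replicate 2). The count at an unadjusted p under 0.05 was 1131; it became 628 with the muscle covariate, 243 with the digit, 142 in titles starting with 1 and 658 with the fibroblast covariate. It was 655 without both title-2 libraries, 247 without both title-4 libraries, and 482 to 2458 leaving out each library in turn (482 without Il10-/- replicate 6, 2458 without replicate 1, 1727 without replicate 2). Members at an unadjusted p under 0.05 numbered 0 to 3 in those fits, and 0 without Il10-/- replicate 5 or 6 or Il10-/- Tnfr1-/- replicate 1, 3 or 4. Their log2 fold changes ranged over 1.17 to 2.22 for Dcn, 0.82 to 1.77 for Lum, 0.67 to 1.52 for Grem1, 0.50 to 1.06 for Wnt5a, 0.56 to 0.96 for Pdgfra and 0.08 to 0.55 for Bmp4. Adjusted p over the alternatives ranged from 0.249 to 1.000 for Dcn and from 0.305 to 1.000 for Pdgfra.

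The muscle covariate is the summed level of the 10 smooth muscle markers, so the median of that list under it (-0.075) was bound to fall near 0. Medians below 0 with the muscle covariate included -0.43 for secreted Wnt antagonists, -0.24 for BMP antagonists, -0.28 for PDGF genes, -0.47 for Hedgehog genes and -0.26 for telocyte genes. They also included -0.25 for submucosal fibroblast genes, -0.30 for proteoglycans, -0.34 for fibroblast markers, -0.22 for interstitial cells of Cajal, -0.27 for glia and neurons and -0.020 for endothelium. Not every list was below 0. BMP ligands were at 0.21, BMP receptors at 0.13, BMP targets at 0.14, Wnt receptors at 0.12 and epithelial Wnt targets at 0.16. Pericytes were at 0.096, leukocytes at 0.33, epithelium at 0.21, skeletal muscle at 0.20 and adipocytes at 1.17. With the digit, and in titles starting with 1, list medians included -0.25 for Wnt antagonists, 0.058 for BMP receptors, -0.36 for BMP antagonists, -0.16 for PDGF genes and -0.39 for Hedgehog genes. They also included -0.25 for telocyte genes, 0.069 for smooth muscle, -0.15 for interstitial cells of Cajal and -0.32 for endothelium. Some other lists stayed above 0, such as epithelial Wnt targets at 0.22 and proteoglycans at 0.11.

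No paired analysis was possible because the labels number no replicates and name no shared litter, day or batch. Depth is unknown, so a value of 0 sets no upper limit, and Rspo1, Rspo3, Wnt2b and Foxl1 lie too low for the filtered fit.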

Other observations

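Other cell types gave these values in the same libraries. Pericyte markers had a median log2 fold change of 0.93 over 4 tested genes, with Rgs5 at 1.66, and Il10-/- Tnfr1-/- replicate 4 held the highest sum (208). Interstitial cells of Cajal had a median of 0.76 over 3 genes, with Etv1 at 1.03, Kit at 0.76 and Ano1 at -0.53. Enteric glia and neuron markers had a median of 1.08 over 10 genes, but their highest sum (417) was in Il10-/- replicate 3, and Ret, the receptor of enteric progenitors, was lower in Il10-/- Tnfr1-/- at 7.08 ± 5.29 (SD, n = 6) than in Il10-/- at 17.1 ± 7.93 (SD, n = 5), with an adjusted p of 0.536 by limma. Leukocyte markers were highest in Il10-/- Tnfr1-/- replicate 2 (135) and next in replicate 3 (106), and replicate 4 stood at 30.8. Thus replicates 3 and 4 shared high stromal and muscle sums but not their leukocyte sum. Adipocyte genes had 1 tested marker (Cidec, 0.67). Skeletal muscle had 3 (median 0.62), with Ckm at 2.13, Acta1 at 0.62 and Mylpf at -0.20. No mesothelial marker passed the filter. With the smooth muscle covariate the medians were -0.22 for interstitial cells of Cajal and -0.27 for glia and neurons, and among titles starting with 1 they were -0.15 and -0.08.

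Dcn was carried mainly by 1 transcript (92.5% of the summed abundance), but in Il10-/- replicates 5 and 6 its main and second coding transcripts were listed at equal values, 50% each.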
